A study of Mus musculus with 20 samples.

Results

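The regions described here are stretches of the mouse genome that carried H3K27ac, a histone mark of active promoters and enhancers, in both nasal plates of the e11.5 face and in neither jaw process, or in both jaw processes and in neither nasal plate. Overlapping peaks of the 4 e11.5 libraries (medial nasal plate, lateral nasal plate, mandibular process, maxillary process) on chromosomes 1 to 19 and X were merged into 28377 regions. A region was put on a side when both libraries of that side had a peak over it and neither library of the other side did. This gave 6191 regions, of which 6175 were nasal-side and 16 were jaw-side. Regions within 1 kb of an annotated transcription start site were called proximal and all others distal. Nasal-side regions comprised 3090 distal and 3085 proximal regions, and jaw-side regions 14 distal and 2 proximal regions.

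All tissue came from wild-type (WT) mouse embryos and was freshly dissected, with the cell type given as mixed, so a list sums over mesenchyme, surface epithelium and every other cell of the piece. Each tissue and stage was represented by 1 library, and the libraries of a side are different tissues, not replicates. A peak list was also read for the nose, mandibular process and maxillary process at e13.5 and for 3 libraries of e15.5, whose labels name a different region from the deposited peak names and which are therefore called by their labels. With 2 libraries against 2 the smallest p an exact two-sided permutation test allows is 0.33, so no difference between the sides was tested over libraries, and the peak calls that define the sides are given as a description.

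The face forms around the primitive mouth from buds of neural crest mesenchyme covered by epithelium. The medial and lateral nasal plates flank the nasal pit and build the nose, the philtrum and the primary palate, while the mandibular and maxillary processes of the first pharyngeal arch build the lower jaw, the upper jaw and the secondary palate. Homeobox genes divide this tissue: Alx1, Alx4, Pax3, Pax7 and Six2 mark frontonasal mesenchyme, and Dlx genes are expressed in nested domains along the pharyngeal arch. In bulk tissue, fewer cells of a type and less signal per cell cannot be told apart.

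The promoters of the genes with the widest side-specific proximal regions are shown first, because the results return to them. Each is the 250 bases before the RefSeq start site (GRCm38.p6, the assembly of mm10), 5′ to 3′ on the gene's strand, with CpG dinucleotides in capitals. Pax7 lies on the minus strand at chr4:139832969-139833218, Tfap2b on the plus strand at chr1:19211804-19212053, Dlx1 on the plus strand at chr2:71529195-71529444 and Dlx2 on the minus strand at chr2:71546755-71547004.
Pax7 promoter: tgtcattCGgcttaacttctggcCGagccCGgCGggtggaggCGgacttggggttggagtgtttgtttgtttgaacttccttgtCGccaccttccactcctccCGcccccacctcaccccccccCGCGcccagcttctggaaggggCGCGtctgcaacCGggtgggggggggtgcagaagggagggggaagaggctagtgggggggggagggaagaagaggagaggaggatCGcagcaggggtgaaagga
Tfap2b promoter: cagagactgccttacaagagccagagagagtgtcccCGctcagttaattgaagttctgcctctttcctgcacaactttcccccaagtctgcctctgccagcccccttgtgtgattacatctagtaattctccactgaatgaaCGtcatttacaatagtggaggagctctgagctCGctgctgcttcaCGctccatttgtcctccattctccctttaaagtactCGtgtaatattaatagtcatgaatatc
Dlx1 promoter: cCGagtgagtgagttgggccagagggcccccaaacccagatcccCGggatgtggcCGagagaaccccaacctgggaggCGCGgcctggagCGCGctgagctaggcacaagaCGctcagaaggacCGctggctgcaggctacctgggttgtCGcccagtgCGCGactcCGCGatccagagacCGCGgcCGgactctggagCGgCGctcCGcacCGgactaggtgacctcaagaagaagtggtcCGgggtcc
Dlx2 promoter: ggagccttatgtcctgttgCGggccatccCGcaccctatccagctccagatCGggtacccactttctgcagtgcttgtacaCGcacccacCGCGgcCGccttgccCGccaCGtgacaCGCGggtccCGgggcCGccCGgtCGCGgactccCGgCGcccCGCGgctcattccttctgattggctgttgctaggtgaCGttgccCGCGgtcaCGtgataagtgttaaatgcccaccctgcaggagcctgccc
These windows held 13 CpG in Pax7 and 5 in Tfap2b, on the nasal side, and 22 in Dlx1 and 24 in Dlx2, on the jaw side. Over 32851 RefSeq promoters the median was 6 CpG per window, with quartiles of 2 and 16. The Pax7 window lay under a peak in both nasal plates and in neither jaw process, as did that of Tfap2b, and the Dlx1 and Dlx2 windows lay under peaks in both jaw processes and in neither nasal plate.

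Distal regions are shown by a 250-base window, on the plus strand of mm10, taken from the bases under both peaks of the region's own side and outside exons, at the place with the most consensus matches (the first of equal places). Capitals mark matches to the E-box CAGNTG, which basic helix-loop-helix factors such as Twist1 bind, searched on both strands. The searched homeodomain consensus sequences (TAATTA, and TAAT followed by ATTA at spacings of 3 or 2 bases) had no match in these windows. The windows stand for the 3 widest nasal-side distal regions, a nasal-side region within the overlapping genes Alx4 and Ext2, and the jaw-side distal region with the highest rank in both jaw lists. They lie at chr2:167564552-167564801 (nearest coding gene Snai1), chr4:154587938-154588187 (Prdm16), chr13:53462406-53462655 (Msx2), chr2:93662789-93663038 (Alx4) and chr5:111361135-111361384 (Pitpnb).
Snai1 distal region, nasal side: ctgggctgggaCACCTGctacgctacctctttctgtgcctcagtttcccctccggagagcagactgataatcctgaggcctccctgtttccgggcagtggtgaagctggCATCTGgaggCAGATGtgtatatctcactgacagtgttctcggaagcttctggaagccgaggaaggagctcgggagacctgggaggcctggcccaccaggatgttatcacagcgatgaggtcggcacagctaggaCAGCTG
Prdm16 distal region, nasal side: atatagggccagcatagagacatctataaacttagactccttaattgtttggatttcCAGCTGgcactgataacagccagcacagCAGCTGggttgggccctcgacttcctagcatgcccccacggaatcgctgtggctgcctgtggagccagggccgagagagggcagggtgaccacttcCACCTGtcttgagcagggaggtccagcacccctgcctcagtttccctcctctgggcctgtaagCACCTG
Msx2 distal region, nasal side: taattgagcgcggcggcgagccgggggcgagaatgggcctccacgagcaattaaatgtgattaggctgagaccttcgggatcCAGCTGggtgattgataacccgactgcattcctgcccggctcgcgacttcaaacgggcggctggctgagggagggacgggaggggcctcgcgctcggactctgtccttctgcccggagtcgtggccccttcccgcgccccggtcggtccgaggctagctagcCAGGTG
Alx4 distal region, nasal side: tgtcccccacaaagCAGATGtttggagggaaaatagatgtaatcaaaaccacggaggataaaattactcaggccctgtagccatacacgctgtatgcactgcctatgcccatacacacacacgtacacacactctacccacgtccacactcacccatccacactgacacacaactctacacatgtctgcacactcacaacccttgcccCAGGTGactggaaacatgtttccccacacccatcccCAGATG
Pitpnb distal region, jaw side: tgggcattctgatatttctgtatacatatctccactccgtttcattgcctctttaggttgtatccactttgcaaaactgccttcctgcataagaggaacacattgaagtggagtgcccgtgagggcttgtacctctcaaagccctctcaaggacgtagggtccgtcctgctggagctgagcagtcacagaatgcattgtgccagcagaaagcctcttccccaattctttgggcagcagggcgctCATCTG
The windows held 4 matches near Snai1, 4 near Prdm16, 2 near Msx2, 3 near Alx4 and 1 near Pitpnb. A match to CAGNTG was also present in 51.0% of the central 250-base windows of 15930 merged distal regions and in 44.8% of the 32851 promoter windows, so the motif is common in both kinds of sequence. These windows were picked for their matches, and a match is a description of letters and not a site.

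The nasal side held almost all side-specific regions. Nasal-side regions made up 18.6% of the 16601 merged distal regions (95% exact Clopper-Pearson interval 18.0 to 19.2) and 26.2% of the 11776 merged proximal regions (25.4 to 27). Jaw-side regions made up 0.0843% of the distal regions (0.0461 to 0.141) and 0.0170% of the proximal regions (0.00206 to 0.0613). Intervals throughout cover counting error only. By comparison, 952 distal regions (5.73%) and 3641 proximal regions (30.9%) had a peak in all 4 libraries.

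The same asymmetry was seen from within each side. Of 5287 distal regions with a peak in both nasal plates, 3090 (58.4%, 57.1 to 59.8) had no peak in a jaw process. Of 996 distal regions with a peak in both jaw processes, 14 (1.41%, 0.771 to 2.35) had no peak in a nasal plate. For proximal regions the shares were 3085 of 8733 (35.3%) on the nasal side and 2 of 3659 (0.0547%) on the jaw side. Regions called in a single library followed the same order: 4501 distal regions were found in the medial nasal plate alone and 5175 in the lateral nasal plate alone, against 695 in the mandibular process alone and 475 in the maxillary process alone.

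The length of the peak lists moved with the side. The medial and lateral nasal plates had 20489 and 21686 peaks on the chromosomes used, against 8401 in the mandibular and 6571 in the maxillary process. Distal peaks made up 49.9% and 51.3% of the nasal lists, against 35.4% and 32.7% of the jaw lists. Read depth is unknown, and with 1 library per tissue the length of a list and the tissue cannot be told apart. The sides were therefore drawn again with equal yield, using the 6571 peaks with the best q-values of each list, the whole of the maxillary list.

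**Figure D1:**
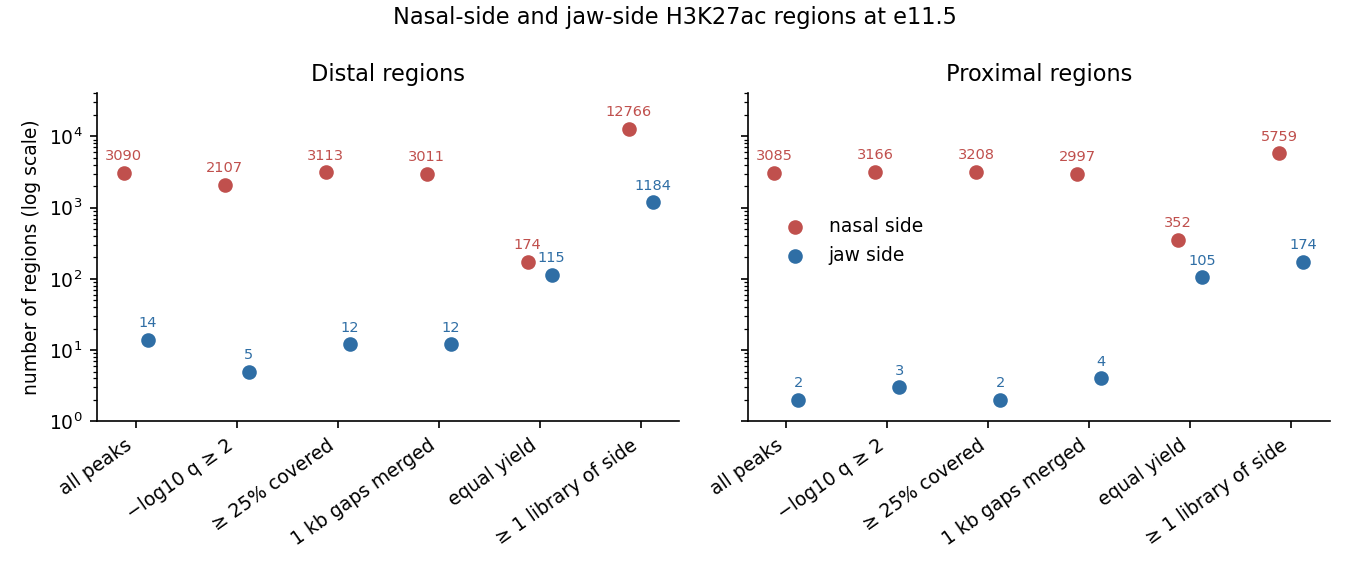
Number of nasal-side and jaw-side regions on a log axis, for distal (left) and proximal (right) regions, with all peaks and under 5 other settings of the peak lists or the side rule. With all peaks the nasal side had 3090 distal regions and the jaw side 14, and with equal yield they had 174 and 115.

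With equal yield the jaw side came closer to the nasal side, more so for distal than for proximal regions. There were 174 nasal-side distal regions among 3764 merged distal regions (4.62%) and 115 jaw-side ones (3.06%), and 352 nasal-side proximal regions among 6516 (5.40%) and 105 jaw-side ones (1.61%). The regions gained on the jaw side were mostly regions with weaker nasal peaks: in the full lists 111 of the 115 distal regions (96.5%) had a peak in at least 1 nasal plate, and 96 (83.5%) had a peak in both. Of the 174 nasal-side distal regions, 40 (23.0%) had a peak in a jaw process in the full lists and none had a peak in both. The full-list members that stayed side-specific with equal yield numbered 134 distal and 257 proximal regions on the nasal side, against 4 distal regions and 1 proximal region on the jaw side. The jaw-side distal regions that stayed have Zfp281, Dclk2, Pitpnb and Marcks (578255 bp away) as nearest coding genes, and the proximal one covers Dlx1.

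Within their own lists the nasal-side regions ranked below the 4-library regions. The median nasal-side distal region stood at percentile 41.7 of the medial and 42.2 of the lateral nasal list by q-value, against 82.7 and 83.4 for distal regions with a peak in all 4 libraries. Nasal-side proximal regions stood at 48.4 and 51.6, against 88.6 and 89.6 for 4-library proximal regions. Only 6 nasal-side distal regions (0.194%) were in the top 10% of the medial and 9 (0.291%) in the top 10% of the lateral list, against 31.1% and 29.2% of the 4-library distal regions. Median fold enrichment over background, as the authors' peak caller gave it, was 3.33 and 3.21 for the nasal-side distal regions, with maxima of 9.63 and 8.55, and 5.78 and 5.51 for the 4-library distal regions. Nasal-side regions were thus nearly absent from the strongest nasal peaks.

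The 14 jaw-side distal regions ranked lower still. Their medians were percentile 13.0 in the mandibular and 25.5 in the maxillary list, against 61.6 and 54.5 for 4-library distal regions, and none was in the top 10% of either list. Their fold enrichments were 2.91 to 4.25 in the mandibular and 2.98 to 4.84 in the maxillary process. Every list stopped at a −log10 q of 1.3, the weakest value in each, and the jaw-side region near Barx1 stood at 1.35 in the mandibular and 1.39 in the maxillary list, while that near Pitpnb stood at 3.63 and 4.54.

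**Figure D2:**
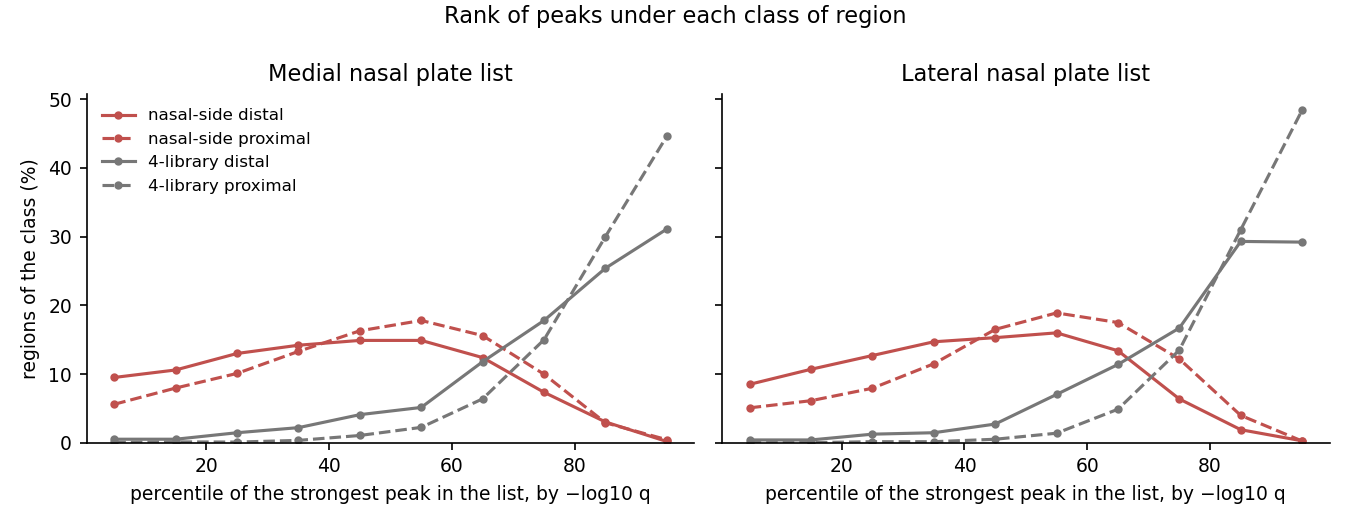
Percentage of the regions of each class (vertical axis) by the percentile of their strongest peak within the list of the medial (left) and lateral (right) nasal plate, ranked by −log10 q with 100 the strongest. Nasal-side distal regions had medians of 41.7 and 42.2 and 4-library distal regions 82.7 and 83.4, and nasal-side regions were nearly absent from the top 10% of each list.

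Nasal-side distal regions were more often intronic and less often exonic or intergenic than 4-library distal regions, and close to them in base composition. They overlapped an exon in 12.6%, lay in introns in 44.4% and between genes in 43.0% of cases, against 16.2%, 34.1% and 49.7% for 4-library distal regions. The median distance to the nearest protein-coding start site was 28458 bp, against 26714 bp. They were narrower, with a median of 1892 bp (range 295 to 9216) against 3110 bp, and a median of 67.4% of a region lay under both nasal peaks. GC content was 47.4% against 48.0%, with 13.9 against 15.0 CpG per kb. Among 28 consensus sequences searched, the 17 with at least 500 matches in both classes occurred at 0.810 to 1.15 times the density per kb of the 4-library regions, with a median ratio of 1.02. The E-box CAGNTG had 2.86 matches per kb in the nasal-side against 2.83 in the 4-library distal regions, the homeodomain core TAATTA 0.271 against 0.235, and GGGCGG, to which Sp and Klf factors bind, 0.294 against 0.363. TAATTA and GGGCGG marked the ends of the range, and neither ratio was tested. Over all merged distal regions TAATTA had 0.273 and GGGCGG 0.279 matches per kb, nearer to the nasal-side than to the 4-library values. Of the nasal-side proximal regions, 2793 (90.5%) lay within 1 kb of a protein-coding start site, against 94.1% of the 4-library proximal regions.

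Most nasal-side distal regions had a peak again in the nose at e13.5, a library that had no part in choosing them. A peak of the e13.5 nose overlapped 2220 of the 3090 (71.8%, 70.2 to 73.4), while 184 (5.95%) had one in the e13.5 mandibular process and 317 (10.3%) in the e13.5 maxillary process. Distal regions with a peak in all 4 e11.5 libraries had higher shares in each, 97.5% in the nose, 48.8% in the mandibular process and 64.9% in the maxillary process. By pattern, 1816 (58.8%) were in the nose alone, 404 (13.1%) in the nose and a jaw process, 7 in a jaw process alone and 863 (27.9%) in none of the 3. The order followed the lengths of the e13.5 lists, which held 25936, 6887 and 10750 peaks on these chromosomes. With the top 6887 peaks of each e13.5 list, the shares were 6.80% in the nose, 5.95% in the mandibular process and 2.82% in the maxillary process.

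The nasal-side distal set drawn with equal yield at e11.5 had its highest share in the e13.5 nose when the e13.5 lists were held to equal yield too. Of its 174 regions, 54 (31.0%, interval 24.3% to 38.5%) had a peak in the nose, 27 regions (interval 10.5% to 21.8%) in the mandibular process and 24 (13.8%, 9.04% to 19.8%) in the maxillary process. Its jaw-side counterpart of 115 regions had the opposite order for nose and mandible, with 12.2% (6.82 to 19.6) in the nose, 25.2% (17.6 to 34.2) in the mandibular process and 6.09% (2.48 to 12.1) in the maxillary process. The 600 distal regions with a peak in all 4 libraries at equal yield had 72.0% in the nose, 61.3% in the mandibular process and 46.3% in the maxillary process. The opposite order depended on the cut of the e13.5 lists. With all e13.5 peaks the nose share was the highest for the nasal-side set (93.7%) and for the jaw-side set (82.6%). The jaw-side set then had 25.2% in the mandibular and 39.1% in the maxillary process. With a single library per tissue at e13.5 these differences could not be tested.

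Nasal-side proximal regions were less tied to the nose than nasal-side distal ones. Proximal regions with a peak in all 4 e11.5 libraries had a peak in nearly every e13.5 list. Their shares were 99.9% in the nose, 84.5% in the mandibular and 97.5% in the maxillary process. Of the 3085 nasal-side proximal regions, 95% had a peak in the e13.5 nose, 21.5% in the mandibular and 67.2% in the maxillary process, and at equal e13.5 yield the shares were 32.6%, 21.5% and 38.1%. Only 800 (25.9%) were in the nose alone and 2130 (69.0%) in the nose and a jaw process. Thus most nasal-side proximal regions had a peak in a jaw process at e13.5, when the maxillary list was also longer than at e11.5. Jaw-side distal regions were too few for a narrow estimate. A peak in the e13.5 nose was present in 3 of 14 (21.4%, 4.66 to 50.8). In the mandibular process 0 of 14 had one (exact interval 0 to 23.2%), and in the maxillary process 4 of 14 (28.6%, 8.39 to 58.1). In the e15.5 libraries labelled mandibular, maxillary and nose, 39.6%, 28.2% and 7.02% of the nasal-side distal regions had a peak.

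**Figure D3:**
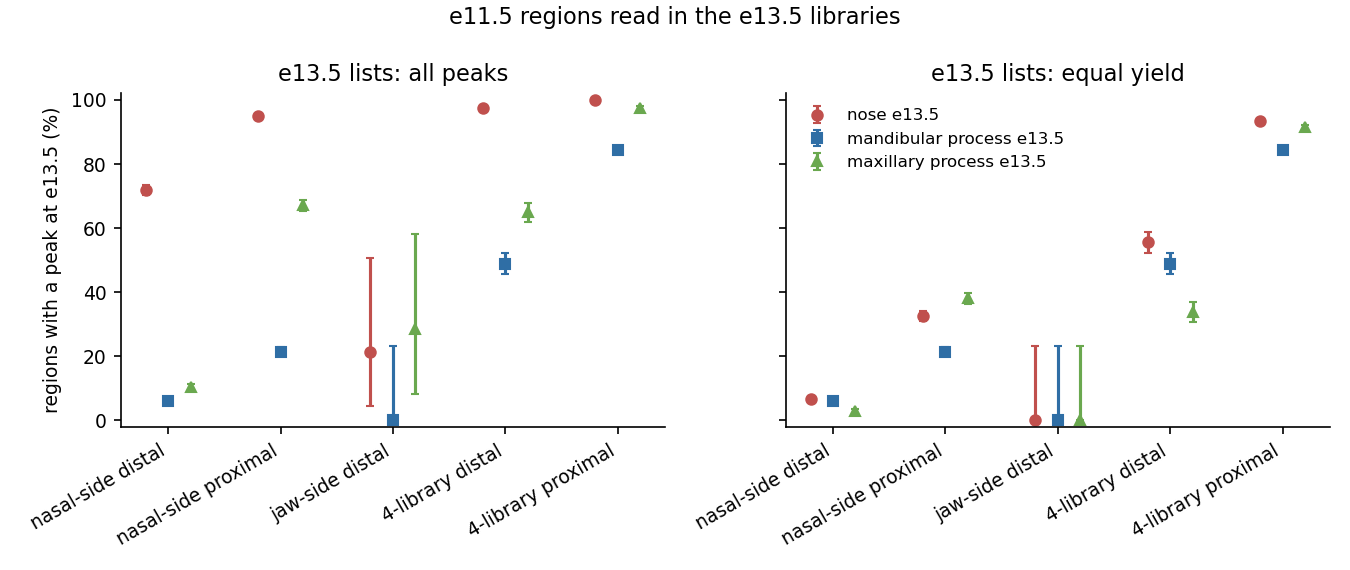
Percentage of e11.5 regions with a peak in the nose, mandibular process and maxillary process of e13.5, with 95% exact intervals, using all e13.5 peaks (left) and the top 6887 of each list (right). Nasal-side distal regions were at 71.8%, 5.95% and 10.3% with all peaks and at 6.80%, 5.95% and 2.82% with equal yield.

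Some genes gathered several nasal-side distal regions. Distal regions were counted for whichever protein-coding gene started closest, up to 100 kb away, and this gene may not be their target. By this rule 1861 of 21728 protein-coding genes (8.56%) had at least 1 nasal-side distal region and 8 genes (0.0368%) had a jaw-side one. Most of the 1861 genes had 1 region (1446 genes), 281 had 2 and 91 had 3, and the maximum was 8. Tns1, which encodes tensin 1, a protein linking integrins to actin, had 8 of its 14 distal regions on the nasal side, all within the gene on chromosome 1, and 6 of these had a peak in the e13.5 nose. Bach2, a transcriptional repressor gene, had 8 of 21 on chromosome 4, and 6 of these were in the e13.5 nose. Smyd3, which encodes a lysine methyltransferase, had 7 of 21, Tenm4, a teneurin adhesion protein gene, 7 of 24, Pja1, a ubiquitin ligase gene on the X chromosome, 7 of 12, and Msi2, an RNA-binding protein gene, 6 of 13. Counts of this kind move with the number of distal regions near a gene, and none of the genes with 6 or more nasal-side regions had a jaw-side region.

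Smad7, an inhibitor of TGF-beta and BMP signalling, had 6 of 15 distal regions on the nasal side. Their fold enrichments were 3.18 to 6.0 in the medial and 2.85 to 5.41 in the lateral nasal plate. All 6 had a peak in the e13.5 nose, and 5 of them also had one in the e13.5 mandibular process, the most of the 10 genes ranked highest. Adamts20, a metalloproteinase gene, had 6 of 10 regions on the nasal side, and 3 of these had a peak in the e13.5 nose. Dlgap1, which encodes a synaptic scaffold protein, had 6 of 12, all with a peak in the e13.5 nose. E130114P18Rik had 6 of 9, and 2 of these had a peak in the e13.5 nose.

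The 5 widest nasal-side distal regions were 7419 to 9216 bp wide. The region with Snai1 as nearest coding gene, a repressor gene of mesenchymal cells, was 9216 bp wide at chr2:167558002-167567217, with a fold enrichment of 4.57 in the medial and 5.30 in the lateral nasal plate. It had a fold of 6.17 in the e13.5 nose, 3.33 in the mandibular and 3.20 in the maxillary process, and it remained nasal-side with equal yield. An intronic region of Prdm16, a chromatin regulator gene of the palate, spanned 9004 bp at chr4:154580689-154589692, with folds of 5.58 and 6.35 in the medial and lateral nasal plates, 4.61 in the e13.5 nose and no peak in either e13.5 jaw process. It too stayed nasal-side with equal yield. A region of 7977 bp that overlapped an exon of Msx2, a homeobox gene of the BMP pathway, at chr13:53462196-53470172 had folds of 3.86 and 4.42, 5.33 in the e13.5 nose and no peak in either e13.5 jaw process, and was no longer nasal-side with equal yield. The others had Zfp36l1 (7590 bp wide, start site 140423 bp away) and Rpusd4 (7419 bp wide) as nearest coding genes.

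Frontonasal identity genes had promoter peaks in the nasal plates almost throughout. A peak lay at the promoter of 8 of the 9 genes in the medial and all 9 in the lateral nasal plate, against 3 in the mandibular and 5 in the maxillary process. Over all protein-coding genes the shares with a promoter peak were 43.1% and 43.9% in the medial and lateral nasal plates, against 25.1% and 20.7% in the mandibular and maxillary processes, and the list counts below are to be read beside these. A promoter peak in both nasal plates and in neither jaw process was found for 3 of them, Pax7, Six2 and Tfap2b, where 12.7% of all protein-coding genes had this pattern. A promoter peak in both jaw processes and in neither nasal plate was found for 2 protein-coding genes of the whole annotation (0.00920%), Dlx1 and Dlx2.

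Pax7, a paired-box gene of neural crest and muscle precursors, lay in the widest nasal-side proximal region, 20232 bp at chr4:139819172-139839403. Its peak spanned all 20232 bp with a fold of 6.61 in the lateral nasal plate, while the peaks of the medial nasal plate covered 2579 bp with a fold of 3.41. The e13.5 nose had a fold of 4.35 there and neither e13.5 jaw process had a peak. The region was no longer nasal-side with equal yield, or when peaks had to cover at least 25% of it. The called stretch at Pax7 was thus longer in the lateral than in the medial nasal plate.

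Tfap2b, which encodes an AP-2 factor of the neural crest and epithelium, lay in a region of 13170 bp at chr1:19205953-19219122. Its fold enrichment was 8.89 in the medial and 6.41 in the lateral nasal plate, 8.87 in the e13.5 nose and 3.02 in the e13.5 maxillary process, with no peak in the e13.5 mandibular process. It was the only promoter of the frontonasal list that stayed nasal-side with equal yield.

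Six2, a homeobox gene of frontonasal mesenchyme, ranked higher in the medial than in the lateral nasal list (percentile 94.9 against 64.3). These are the best promoter peaks of each list, with folds of 9.09 in the medial and 4.15 in the lateral nasal plate, and they lay in different regions. The nasal-side proximal region at chr17:85679585-85688040 had folds of 8.97 and 4.15 in the medial and lateral nasal plates. The one at chr17:85688384-85694629 had folds of 9.09 and 3.09. At e13.5 the promoter had a fold of 7.34 in the nose and 3.24 in the maxillary process. These folds come from separate lists, and the size of a difference between libraries was not tested. The other wide nasal-side proximal regions lay at 2010111I01Rik on chromosome 13 (12567 bp), Foxc1, a forkhead gene of the neural crest (10731 bp, folds of 4.68 and 4.61, nasal-side also with equal yield), and Pax9, a paired-box gene of the palate and teeth (9285 bp, folds of 3.98 and 2.83).

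The other frontonasal genes had jaw peaks or only 1 nasal peak. Alx1 and Pax3 had promoter peaks in both nasal plates and the maxillary process, Alx4, Nr2f1 and Nr2f2 in all 4 libraries, and Sp8, a zinc finger gene of the nasal epithelium, in the lateral nasal plate alone with a fold of 3.02. At the Alx4 promoter the peaks were 14129 and 14440 bp wide in the medial and lateral nasal plates, against 7193 bp in the mandibular and 6829 bp in the maxillary process. At Alx1 they were 15729 and 18937 bp wide in the nasal plates, against 5044 bp in the maxillary process and no peak in the mandibular process. Pax3 and Nr2f2 also had wider promoter peaks in both nasal plates than in any jaw process with a peak. Nr2f1 did not: its peaks were 8530 bp wide in the medial and 1612 bp in the lateral nasal plate. In the mandibular and maxillary processes the Nr2f1 peaks were 8046 and 7757 bp wide.

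**Figure D4:**
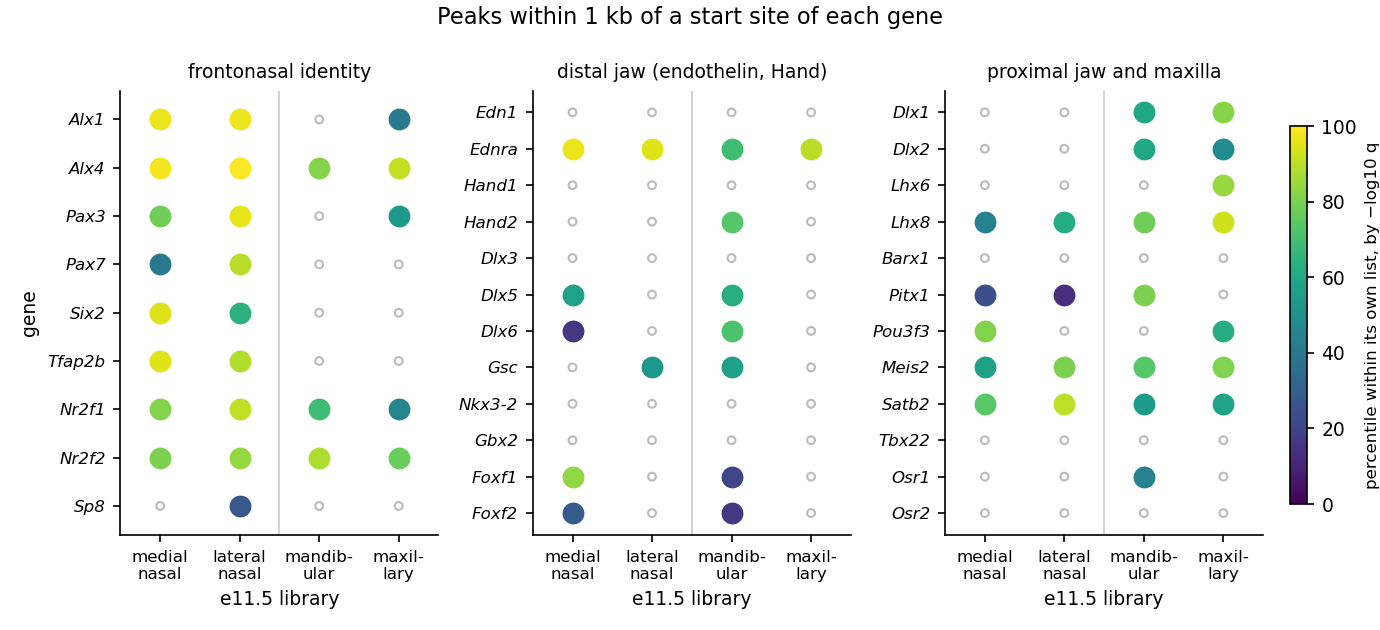
Promoter peaks (within 1 kb of a start site) of the genes of 3 lists in the 4 e11.5 libraries; filled circles are peaks, coloured by their percentile within the library's own list by −log10 q, and small open circles mark no peak. Pax7, Six2 and Tfap2b had peaks in the nasal plates alone and Dlx1 and Dlx2 in the jaw processes alone.

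The widest jaw-side region covered Dlx1 and Dlx2, homeobox genes that pattern the upper part of the first arch, along 18748 bp at chr2:71528254-71547001. Its best peak had a fold enrichment of 4.03 in the mandibular and 5.11 in the maxillary process, at −log10 q of 2.94 and 4.95. At e13.5 the region had a peak in the nose, with a fold of 3.01, and in the mandibular process, with a fold of 3.07, and none in the maxillary process. It stayed jaw-side with equal yield. With the top 6887 peaks of each e13.5 list the nose peak was absent and the mandibular peak remained. At either setting the locus had no peak in the e13.5 maxillary process, so it did not meet the jaw-side rule there.

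The remaining jaw-side regions lay singly, 1 to a gene. The other proximal one, 1690 bp wide, lay at a start site of a noncoding transcript 34357 bp from the Aldh1b1 start site, with folds of 3.12 in the mandibular and 3.33 in the maxillary process. Among the distal ones, an intronic region of Pitpnb, which encodes a phosphatidylinositol transfer protein, at chr5:111360452-111362015 had the highest folds, 4.25 and 4.84, and no peak at e13.5. A region 4589 bp from the start site of Barx1, a homeobox gene of the developing jaw and teeth, at chr13:48667587-48669996 had folds of 3.13 and 3.29, but its mandibular and maxillary peaks had only 245 bp in common. Of the others, some had Slit3, Bcas3, Aspscr1, Adamtsl1, Zfp281 and Dclk2 as nearest coding genes, within 100 kb. The rest had Edn3, Igsf10, Slc4a3, Ice1, Cdh4 and Marcks. These genes started 100941 to 578255 bp away and were not counted as having a jaw-side region. The folds of all these regions were 2.91 to 3.68 in the mandibular and 2.98 to 3.94 in the maxillary process.

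The genes named from here on other than Hand2, Dlx1, Dlx2, Lhx6, Osr1, Gsc, Pou3f3 and the frontonasal and olfactory genes were picked with their values in view. Genes of jaw identity had jaw peaks with or without nasal ones, or no promoter peak at all. Among 12 genes of the distal jaw, which respond to endothelin signalling and Hand factors, 5 had a promoter peak in the medial and 2 in the lateral nasal plate, against 7 in the mandibular and 1 in the maxillary process, and 5 had none in any e11.5 library. Hand2, a basic helix-loop-helix gene of the lower jaw, had a peak of 14500 bp with a fold of 4.57 in the mandibular process and in no other e11.5 library. It had a peak again at e13.5, with a fold of 4.40, in the mandibular process alone. Dlx5 and Dlx6, paired homeobox genes of the lower jaw, had peaks in the medial nasal plate and the mandibular process: for Dlx6 the fold was 2.90 over 814 bp in the medial nasal plate and 4.36 over 14611 bp in the mandibular process. Gsc, a homeobox gene of the lower jaw, had promoter peaks in the lateral nasal plate and the mandibular process, and 3 of its 5 distal regions were nasal-side and were seen again in the e13.5 nose. The rule for the jaw side needs a peak in both jaw processes, so genes of the mandible alone cannot be members by their promoters.

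Among 12 genes of the proximal jaw and maxilla, 5 had a promoter peak in the medial and 4 in the lateral nasal plate, against 7 in the mandibular and 7 in the maxillary process, and 3 had none. Lhx6, a LIM homeobox gene of the oral mesenchyme, had a peak in the maxillary process alone, with a fold of 5.21. Lhx8, its close relative, had peaks in all 4 libraries: its folds were 3.39 and 3.85 in the medial and lateral nasal plates, against 4.87 and 6.34 in the mandibular and maxillary processes, and with equal yield it became jaw-side over 10950 bp. Osr1, a zinc finger gene of the jaw and palate, had a peak in the mandibular process alone, with a fold of 3.64, and peaks in all 3 libraries of e13.5. Pitx1, a homeobox gene of the lower jaw, had peaks of 551 and 454 bp in the medial and lateral nasal plates and of 11041 bp in the mandibular process. Nasal-side distal regions were found near 1 of the 12 genes of each jaw list, Gsc and Pou3f3.

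Near the frontonasal genes, 12 of 36 distal regions (33.3%, 18.6 to 51) were nasal-side, near 6 of the 9 genes, and near the genes of the proximal jaw and maxilla 1 of 19 (5.26%, 0.133 to 26.0) was. Over all protein-coding genes 2485 of 12999 distal regions within 100 kb (19.1%) were nasal-side, and both intervals include this value. Alx4 had 3 nasal-side distal regions, with folds of 2.69 to 3.57 over both nasal plates, and all 3 were in the e13.5 nose. Pax3, Pax7, Six2 and Sp8 had 2 each and Tfap2b had 1.

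Signalling pathways of the face had nasal-side distal shares on either side of the background. The share was 11 of 43 (25.6%) for Hedgehog genes, 13 of 53 (24.5%) for BMP, 8 of 34 (23.5%) for retinoic acid, 13 of 62 (21%) for Wnt and 5 of 45 (11.1%) for FGF, and every interval included 19.1%. Boc, a Hedgehog co-receptor gene, had 4 nasal-side regions of 13, and Gas1, another co-receptor gene, 3 of 8, and all 7 were seen in the e13.5 nose. Bmp7, a BMP ligand gene, had 3 of 7 and a promoter peak in both nasal plates alone, with folds of 4.46 and 5.16. Tcf7l2, which encodes a nuclear effector of Wnt signalling, had 3 of 12, and Rara, a retinoic acid receptor gene, 2 of 4. In the FGF list Spry1, an FGF antagonist gene, had nasal-only promoter peaks with folds of 6.83 and 5.52 and stayed nasal-side with equal yield. Fgf10 and Etv5, a ligand gene and a target gene of the pathway, also had promoter peaks in both nasal plates alone. In the cartilage and bone list 12 of 48 regions (25%) were nasal-side. Sox9, the regulator of chondrocyte fate, had folds of 5.30 and 3.98 at its promoter in the nasal plates and no e11.5 jaw peak, and Sox5, its partner, had 4 nasal-side regions of 10.

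**Figure D5:**
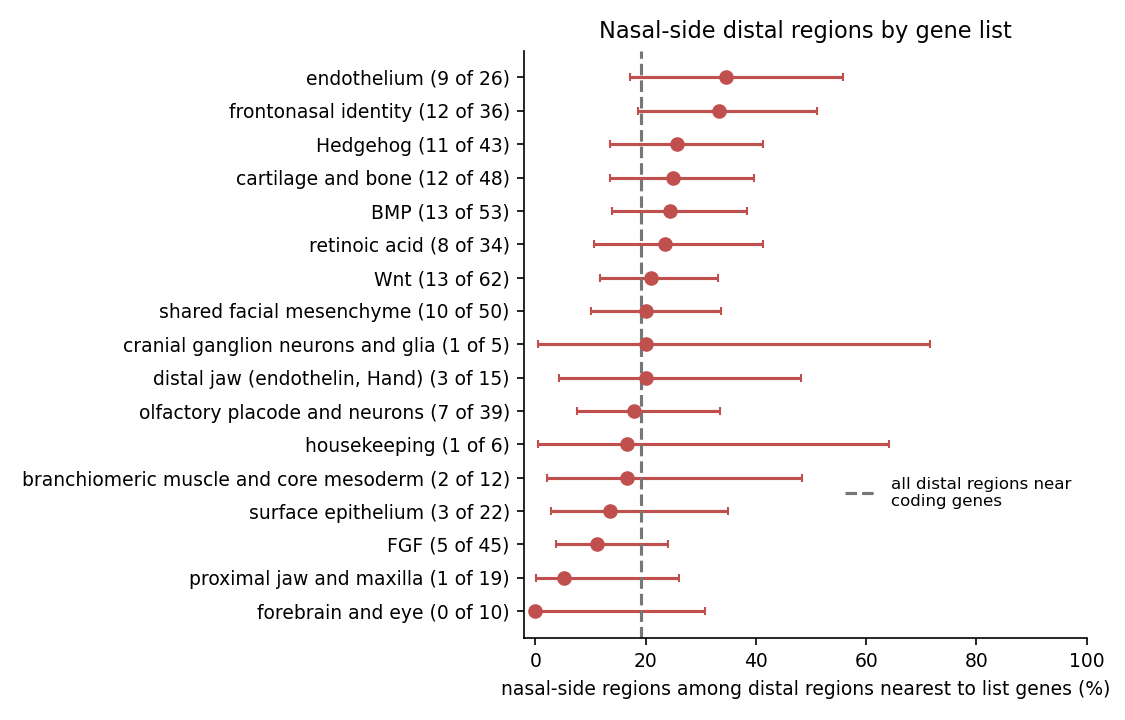
Percentage of the distal regions nearest to the genes of each list that were nasal-side at e11.5, with 95% exact intervals and the number of regions, for lists with at least 5 distal regions. The dashed line is the 19.1% over all protein-coding genes, which every interval includes.

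Genes shared by the facial mesenchyme had peaks on both sides. All 13 had a promoter peak in each nasal plate, and 11 of 13 had one in the mandibular and 11 in the maxillary process. Twist1, Prrx1 and Pdgfra, markers of this mesenchyme, were in all 4 libraries, and these markers do not tell nasal from jaw tissue. Of its distal regions, 10 of 50 were nasal-side. None of 11 Hox genes, which the crest of the first arch and frontonasal mass does not express, had a promoter peak, and no gene was called on the jaw side among these lists apart from Dlx1, Dlx2 and Barx1.

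Several lists of markers of other cell types also had more promoter peaks in the nasal plates than in the jaw processes, as had all protein-coding genes. Of 14 surface epithelium genes, 5 had a promoter peak in the medial and 9 in the lateral nasal plate, against 0 in the mandibular and 0 in the maxillary process, where the shares over all genes were 43.1% and 43.9%, against 25.1% and 20.7%. Grhl2, an epithelial transcription factor gene, had nasal-only folds of 4.57 and 4.27, and Epcam, an epithelial adhesion gene, 3.69 and 3.54. Krt8 had no promoter peak in any e11.5 library. Of 18 olfactory genes, 9 and 9 had one in the medial and lateral nasal plates, against 4 and 5 in the mandibular and maxillary processes, and 7 of their 39 distal regions (17.9%) were nasal-side. Sox2, a placode gene, and Eya2, which encodes a phosphatase partner of the homeobox factors of that placode, had nasal-only promoter peaks, while Pax6 and Neurod1 had none. Of 13 endothelial genes, 4 and 4 had a promoter peak in the nasal plates against 2 and 1 in the jaw processes, and 9 of their 26 distal regions (34.6%, 17.2 to 55.7) were nasal-side. Kdr, Tek and Cdh5 had no promoter peak.

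The remaining lists had promoter peaks in few genes, apart from the housekeeping genes. Of 11 forebrain and eye genes, 3 had a promoter peak in the medial and 1 in the lateral nasal plate, against 0 in either jaw process, and Six3 alone had both nasal peaks. Muscle and core mesoderm genes had 3 and 1 of 12, cranial ganglion and glia genes 4 and 2 of 12, and erythroid and macrophage genes 1 and 0 of 10, against 0 in both jaw processes for each list. Housekeeping genes had 11 and 11 of 12, against 11 in the mandibular and 8 in the maxillary process. The part of these cell types and of list length in the nasal-side set was not tested.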

How the data were processed

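The authors performed H3K27ac ChIP-seq on dissected mouse facial tissue, and per the labels reads were processed with BWA 0.7.7, SAMtools 0.1.19 and MACS2 2.2.4 on mm10. The settings for the mouse libraries are not given in the sources used here. The deposited files are broad peak lists, 1 per sample, called per sample. Each peak carries the authors' fold enrichment, their −log10 p-value and −log10 q-value, and a deposited score, which is 10 times the −log10 q-value rounded down in nearly all peaks. These values are relative to each library's own background, so they were used as ranks within a list. Read depth is unknown, a stretch without a called peak can still carry the mark, and the 10 input samples were not used here.

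Groups followed the labels. Peaks of the 4 e11.5 lists on chromosomes 1 to 19 and X that overlapped by at least 1 bp were merged, which equalled the merge of bedtools 2.31.1, and the side rule was tested on simulated data with planted regions. Start sites came from GENCODE vM21 (130588 positions, 21728 protein-coding genes), which matches GRCm38. A promoter peak lay within 1 kb of a coding gene's start site, and a distal region belonged to the nearest coding start site within 100 kb. Sequences were read from GRCm38.p6 and RefSeq. The 248 genes of 19 lists, the members and the consensus sequences were chosen with earlier results of these data known. Named genes were the 10 with the most side-specific distal regions per side, the 5 widest regions of each side and class, and side-specific members of the frontonasal, jaw and olfactory lists. Some genes of the lists are not reported here. Shares have 95% exact Clopper-Pearson intervals. Alternatives were equal yield, a −log10 q of at least 2, peaks covering at least 25% of a region, merging of peaks up to 1 kb apart, a proximal limit of 2.5 kb, gene assignment within 500 kb, each library left out, and a peak in at least 1 library of a side. The last, and equal yield at both stages together, were added after seeing the data. Scripts ran in Python 3.11.15 with pysam 0.24.0, pandas 2.3.3, scipy 1.17.1, numpy 2.4.6 and matplotlib 3.10.9.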

Additional observations from a re-analysis of the deposited data

How the results depend on the processing

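The counts of side-specific regions depended on list length and on the rule. List genes were counted by distal regions alone. With all peaks, nasal-side and jaw-side distal regions lay near 69 and 1 of the 248 list genes, and near 8.56% and 0.0368% of all protein-coding genes. Such counts move with the number of distal regions near a gene. Counted by region, the nasal-side share of every list had an interval that included the 19.1% over all protein-coding genes. With equal yield there were 174 nasal-side distal, 352 nasal-side proximal, 115 jaw-side distal and 105 jaw-side proximal regions. The nasal-side and jaw-side distal ones lay near 8 and 2 of the 248 list genes, and near 140 and 86 of all 21728 protein-coding genes. For the other settings the list counts have no share over all genes beside them. With a peak in at least 1 library of a side, the same counts were 12766, 5759, 1184 and 174 regions, near 141 and 22 list genes, and the share of distal regions seen again was 39.1% (nasal side, e13.5 nose) and 3.21% (jaw side, either e13.5 jaw process). Requiring a −log10 q of at least 2 left 5 jaw-side distal regions near 0 list genes, with shares seen again of 85.6% on the nasal and 60.0% on the jaw side. Merging peaks up to 1 kb apart gave 4 jaw-side proximal regions. The nasal share in the e13.5 nose was 93.7% with equal yield at e11.5, 6.80% with equal yield at e13.5 and 31.0% with both. The jaw share in either e13.5 jaw process was 44.3% of 115 regions with equal yield at e11.5. It was 0% of 14 regions with equal yield at e13.5 and 26.1% of 115 with both. Leaving out each library in turn gave 3481 to 8509 nasal-side distal, 3675 to 4661 nasal-side proximal, 25 to 710 jaw-side distal and 8 to 122 jaw-side proximal regions, near 72 to 119 and 1 to 13 list genes, with shares of 44.3% to 75.9% on the nasal and 2.45% to 48.0% on the jaw side. The jaw-side distal count was 25 without the medial and 31 without the lateral nasal plate, against 490 without the mandibular and 710 without the maxillary process, since the jaw side is then set by 1 library. The nasal-side distal count was 8509 without the medial and 7735 without the lateral nasal plate, against 3967 without the mandibular and 3481 without the maxillary process. The median rank of nasal-side distal regions was recomputed only by fold enrichment and was then 41.4 in place of 41.7, and their TAATTA density was 0.260 to 0.281 matches per kb over its alternatives. Single regions were followed across settings for a chosen 97 nasal-side regions and for all 16 jaw-side regions. The 97 leave out some regions of genes named above, among them those of Smad7, Boc and Sox5. Of the 97 and 16, 9 and 5 kept their side with equal yield and 54 and 2 with the stricter q-value. When peaks had to cover at least 25% of the region, 91 and 14 kept it. No paired analysis was possible because each tissue had 1 library and the labels give no replicate numbers. Unknown depth, 1 library per tissue and the difference in list length limit every count given here.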
